A study of Mus musculus with 5 samples.

Results

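The Arp2/3 complex and its regulators were described here as 10 genes out of the 23234 in the deposited expression table. They were listed by name for their role in actin assembly, with earlier results of these data known. The members were Actr2, Actr3, Arpc1b, Arpc2, Arpc3 and Arpc5, which encode Arp2/3 subunits, Was and Wipf1, which encode WASP and its partner WIP, the GTPase gene Cdc42, and Hcls1, which encodes the cortactin relative HS1. All 10 were found in the table and all 10 passed the filter on low values, which asked for 1 FPKM (fragments per kilobase of transcript, scaled to the size of the library) or more in 2 or more libraries.

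The Arp2/3 complex starts new actin filaments as branches on the sides of existing ones. It is idle until a nucleation promoting factor such as WASP binds it, and WASP itself is held in a closed state that Cdc42 and membrane phosphoinositides open. WIP binds WASP and protects it from degradation. HS1 binds Arp2/3 and filamentous actin and is phosphorylated by Syk and Src family kinases after B cell receptor ligation. In B cells, branched actin drives the spreading of the cell over antigen and the shaping of the immune synapse through which antigen is taken up. Csk phosphorylates the inhibitory tail tyrosine of the Src family kinases that act at the start of this pathway.

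RNA sequencing compared sorted germinal centre light zone B cells of mouse spleen between 3 libraries of Csk(+/+) label, called control below, and 2 of Csk(f/f) label, called floxed below. The donor cells were naive B cells that carried ERT2cre(KI/+), a Cre that tamoxifen activates, and B1-8hi(KI/+), a knock-in immunoglobulin heavy chain that binds the hapten NP. They were CD45.1/2 and either Csk(+/+) or Csk(fl/fl). They were placed in C57BL/6J hosts that received NP-CGG in alum on day 0. Tamoxifen was given to both groups on days 8 and 9, so the controls carried the Cre and the drug as well. NP-binding donor light zone cells were sorted on day 11. The design text calls the libraries biological replicates, and the labels do not say whether a library pooled several mice. The gene-wise p-values rest on the spread between these 5 libraries, which the model draws toward that of genes of similar level.

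The lowest values in each library put its depth at between 9.55 and 23.7 times 1e+06 fragments, and between 13291 and 14981 genes were above 0. The Csk transcript, the check of the labels, was not lower in floxed libraries (453 and 476 FPKM) than in control (378, 436 and 415 FPKM). A value over the whole gene includes exons outside a floxed part, so it does not check the deletion, and the groups are named for their labels only. All 6 B lineage markers were present (2890 to 4050 FPKM summed in control and 3780 to 4040 in floxed libraries). Without overlap, 2 of them were lower (Ms4a1 and Ebf1) and 1 higher (Cd79a) in floxed libraries. All 8 germinal centre markers were present too (852 to 907 and 862 to 871). Of those 8, 6 were lower and 2 higher in floxed libraries without overlap, against 24.5% and 20.7% of all tested genes. The T cell genes Cd3e and Cd3g, the macrophage gene Mertk and the neutrophil genes Mpo and Camp were at 0 in all 5 libraries. The 8 T cell genes summed to 110 to 124 FPKM in control and 108 to 111 in floxed libraries, mostly from Lck. Without overlap, 1 of the 8 was lower (Lck) and 2 were higher in floxed libraries. The higher ones included Thy1, with 1.86, 2.27 and 1.16 FPKM in control and 3.51 and 4.62 in floxed libraries. The 6 neutrophil genes found summed to at most 2.71 FPKM. All 9 macrophage markers stayed below 1 FPKM, summing to 0.655 to 0.787 in control and 1.32 to 1.53 in floxed libraries, and the 6 stromal markers summed to at most 0.43 and to 0.558 to 0.582. The 4 erythroid markers varied widely, from 140 to 783 and from 100 to 380 FPKM. The summed level of 5 dark zone genes was 182 to 204 FPKM in control and 171 to 178 in floxed libraries, and that of 6 light zone genes was 11300 to 15000 and 16500 to 16600, mostly from Cd74. Of those 6, 3 were higher and 2 lower (Cd86 and Bcl2a1b) in floxed libraries without overlap. Of the 5 dark zone genes, 3 were lower (Polh, Aurka and Plk1) and 0 higher without overlap. The part of these differences in the results below was not tested. In such bulk samples, fewer cells of a type and less RNA per cell cannot be told apart.

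The members were abundant transcripts. By mean FPKM over the 5 libraries they ranked between the 85.4th percentile (Wipf1) and the 98.4th percentile (Arpc2) of the 10242 genes tested. FPKM is a level per length of transcript, and the members are set side by side on it. Other effects on the level of a gene, such as that of GC content, were not removed. The order below is thus that of the deposited values. Arpc2, Arpc3, Actr3 and Arpc1b were highest, with means of 535, 467, 466 and 453 FPKM, and no neighbours among them kept their order in all 5 libraries. Hcls1 (333 FPKM), Cdc42 (218 FPKM) and Arpc5 (154 FPKM) followed, each separated from its neighbours in 5 of 5 libraries. Actr2 (109 FPKM) and Was (106 FPKM) were not separated from each other, and Wipf1 was lowest at 62.3 FPKM. The actin-related proteins Arp2 and Arp3 form the base of a new filament as a pair in the complex. The deposited RNA level of Actr2 was 0.277, 0.239 and 0.209 of that of Actr3 in control and 0.229 and 0.198 in floxed libraries. These ratios overlapped between the groups.

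**Figure D1:**
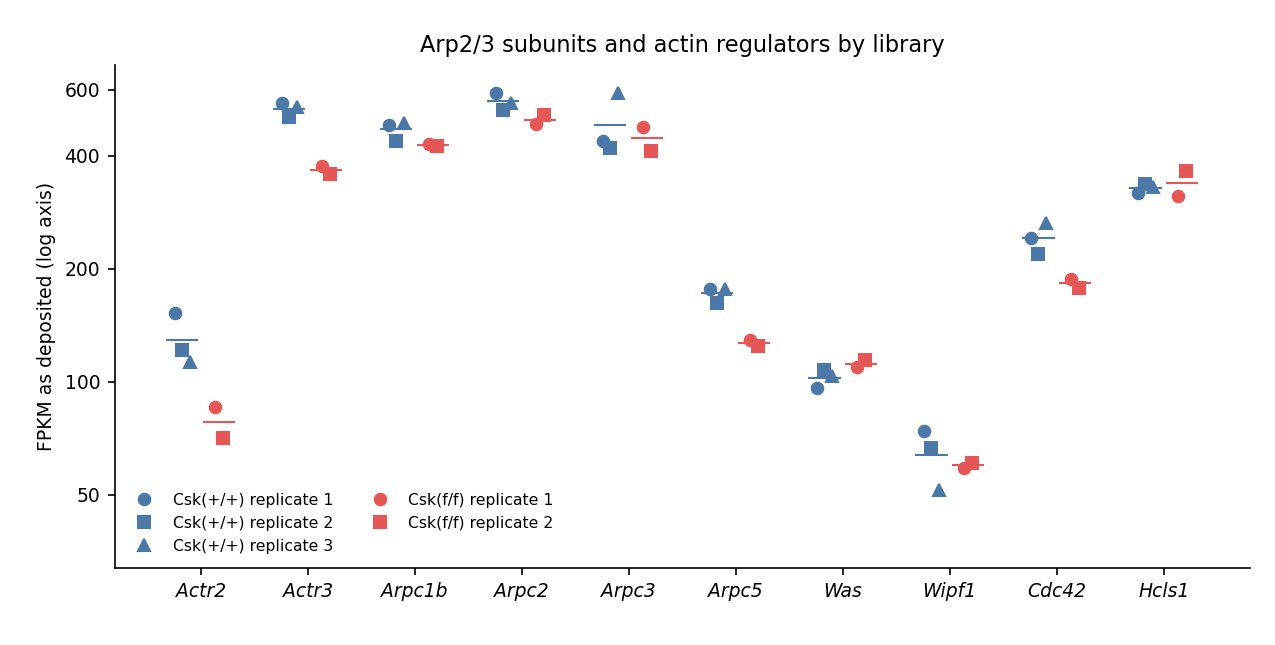
FPKM of the 10 members as deposited, on a log axis, with 1 point per library (3 Csk(+/+) in blue, 2 Csk(f/f) in red) and a bar at each group's mean. Actr2, Actr3, Arpc5 and Cdc42 show gaps between the groups, while the points of Arpc3, Wipf1 and Hcls1 overlap.

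Between the groups, Actr2, Actr3, Arpc5 and Cdc42 had the lower means in floxed libraries, at 0.613 to 0.759 of the control level, while the other 6 members lay between 0.896 and 1.09 of it. No member passed the test over all genes, limma with an adjusted p under 0.05, which 0.0781% of tested genes (8 of 10242) passed. At an unadjusted p under 0.05, 4 of the 10 members were lower, against 13.6% of all tested genes, and 0 were higher, against 8.07%. In 6 of 10 members every floxed library lay below every control library, against 24.5% of all tested genes. In 1 member every floxed library lay above, against 20.7%. The members' median log2 fold change was -0.15, beside -0.01 over all tested genes.

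Actr3, the gene of the Arp3 subunit, had 553, 507 and 540 FPKM in control libraries and 375 and 358 FPKM in floxed libraries. Both floxed values lay below every control value. The log2 fold change was -0.54 ± 0.13 (SE), with a 95% CI of -0.85 to -0.23 and a limma adjusted p of 0.154.

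Actr2, the gene of its partner Arp2, had 153, 121 and 113 FPKM in control and 85.7 and 71.0 FPKM in floxed libraries. The groups did not overlap, although the control values themselves spread by a CV of 16.4%. The log2 fold change was -0.71 ± 0.17 (95% CI -1.10 to -0.31, adjusted p = 0.154).

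Arpc5, which encodes the small p16 subunit, had 177, 162 and 177 FPKM in control and 129 and 124 FPKM in floxed libraries. All 3 control values were above both others. Its log2 fold change was -0.44 ± 0.12 (95% CI -0.72 to -0.16, adjusted p = 0.155).

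The remaining subunits differed less. Arpc2, which with ARPC4 forms the core of the complex, had 589, 531 and 554 FPKM in control and 486 and 513 FPKM in floxed libraries. Arpc1b, the WD-repeat subunit that prevails in blood cells, had 484, 437 and 489 FPKM against 429 and 424. For both genes the floxed values were the lowest, by gaps of 1.04 and 1.02 times. Their log2 fold changes were -0.16 (95% CI -0.48 to 0.16, adjusted p = 0.499) and -0.14 (95% CI -0.45 to 0.18, adjusted p = 0.552).

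Arpc3, the p21 subunit, had 438, 419 and 588 FPKM in control and 477 and 412 FPKM in floxed libraries. control replicate 3 stood apart and the groups overlapped. The log2 fold change was -0.10 (95% CI -0.54 to 0.33, adjusted p = 0.754), and 0.05 without that library.

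Upstream of the complex, Cdc42 was the member with the larger difference. Its level was 241, 219 and 265 FPKM in control and 188 and 178 FPKM in floxed libraries, with no overlap. The log2 fold change was -0.40 ± 0.14 (95% CI -0.71 to -0.08, adjusted p = 0.182).

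Was, the effector that Cdc42 opens, had 96.3, 107 and 104 FPKM in control and 110 and 114 FPKM in floxed libraries. It was the member whose floxed values both lay above control. The log2 fold change was 0.13 (95% CI -0.15 to 0.41, adjusted p = 0.543). Cdc42 thus stood at 2.50, 2.04 and 2.55 times the level of Was in control and at 1.71 and 1.56 times in floxed libraries.

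Wipf1, the gene of the WASP chaperone WIP, had 73.9, 66.6 and 51.4 FPKM against 59.0 and 60.8. The floxed values fell inside the range of the control values (log2 fold change -0.08, 95% CI -0.47 to 0.32, adjusted p = 0.799). Hcls1, the Src family and Syk substrate, had 318, 337 and 331 FPKM against 312 and 365. It was the steadiest member within control, with a CV of 2.97%, and its groups overlapped (log2 fold change 0.04, 95% CI -0.28 to 0.35, adjusted p = 0.877).

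The smallest estimated number of fragments behind a member's value was 2271 (Arpc5), for which counting alone gives a CV of about 2.1%. In the floxed libraries of Arpc1b, Arpc5, Was and Wipf1 the spread between the libraries was about as small as the counting error. Some settings turned some of these differences into calls. With library weights estimated from the data, which gave control replicate 3 a weight of 0.259 and the others 1.35 or more, Actr2, Actr3 and Arpc5 passed as lower (limma adjusted p = 0.0302, 0.037 and 0.0467), where 4.66% of tested genes did. Without control replicate 3, Actr2 (log2 fold change -0.80, adjusted p = 0.0405) and Actr3 (-0.53, adjusted p = 0.0453) passed, where 2.79% of tested genes were called lower. Without floxed replicate 1 the log2 fold changes of Actr2, Actr3, Arpc5 and Cdc42 were -0.839, -0.572, -0.465 and -0.435. Without floxed replicate 2 they were -0.572, -0.507, -0.408 and -0.36. Each of these fits rested on 1 floxed library.

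The order of the members' fold changes followed the GC content of their transcripts. Over the 10 members, the log2 fold change and the GC content of the longest annotated transcript had a Spearman correlation of 0.92, and over the 10119 tested genes with a GC value 0.71. The points share the same 5 libraries, and genes are not independent replicates. Actr2, with 40.3% GC, lay in the lowest of 10 equal bins of GC content, whose median log2 fold change was -0.47. Cdc42 (42.6%) and Actr3 (43.8%) lay in the next bin, with a median of -0.38, and Arpc5 (46.2%) and Arpc2 (46.6%) in the fourth, with a median of -0.17. At the other end, Hcls1 (55.3%) and Was (55.8%) lay in bins with medians of 0.21 and 0.28. Actr2, Actr3 and Arpc5 lay below the median of their own bin, as did Arpc1b (52.5%), Arpc3 (49.8%), Hcls1 and Was. Cdc42, Arpc2 and Wipf1 (49.7%) lay close to it.

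**Figure D2:**
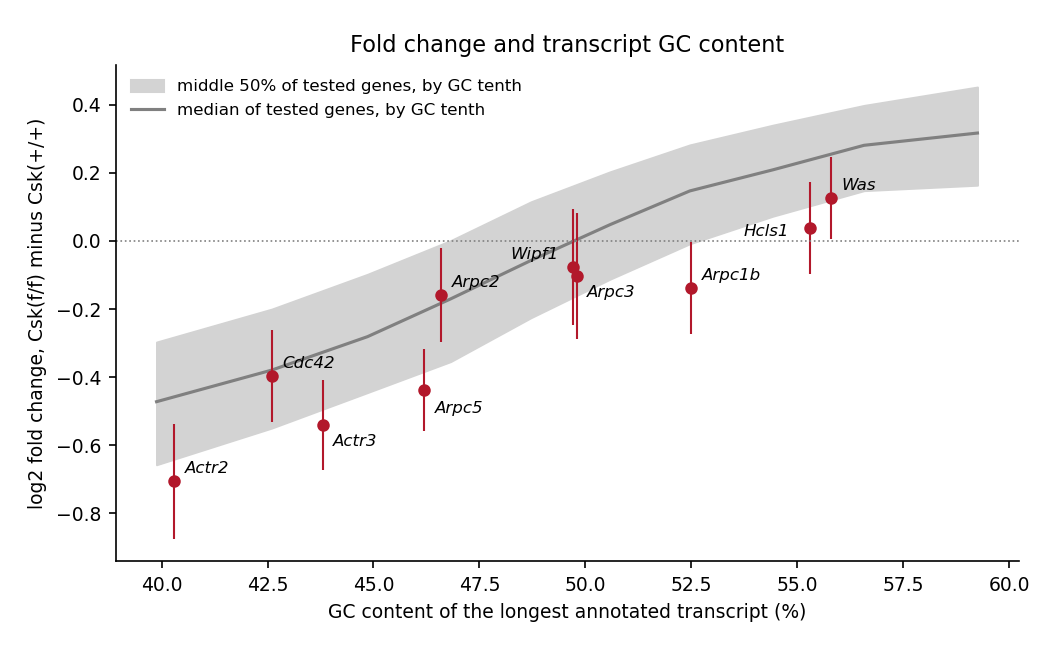
Log2 fold change of each member (red, with its standard error) against the GC content of its longest annotated transcript, over the median (line) and middle 50% (band) of all tested genes in 10 bins of GC content. The members climb from Actr2 at 40.3% GC to Was at 55.8%, with Actr2, Arpc5, Arpc1b, Hcls1 and Was below the middle 50% of their bins.

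After the GC trend was subtracted from each library, the differences of the 4 lower members shrank. The log2 fold change of Actr2 became -0.26 (95% CI -0.60 to 0.09), that of Actr3 -0.22 (-0.58 to 0.14), that of Arpc5 -0.24 (-0.56 to 0.09) and that of Cdc42 -0.02 (-0.38 to 0.33). At an unadjusted p under 0.05, 0 of 10 members were then lower, against 5.07% of all tested genes, and limma called 0 members over all genes (adjusted p of 0.614 or more). The correction did not act on all members alike. Arpc1b moved from -0.14 to -0.28, and the signs of Arpc2 (to 0.02), Was (to -0.13) and Hcls1 (to -0.20) turned. In all, 9 of 10 members were negative after it, against 5038 of 10119 tested genes. The members' median was -0.16, where the median of all tested genes was 0.00.

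**Figure D3:**
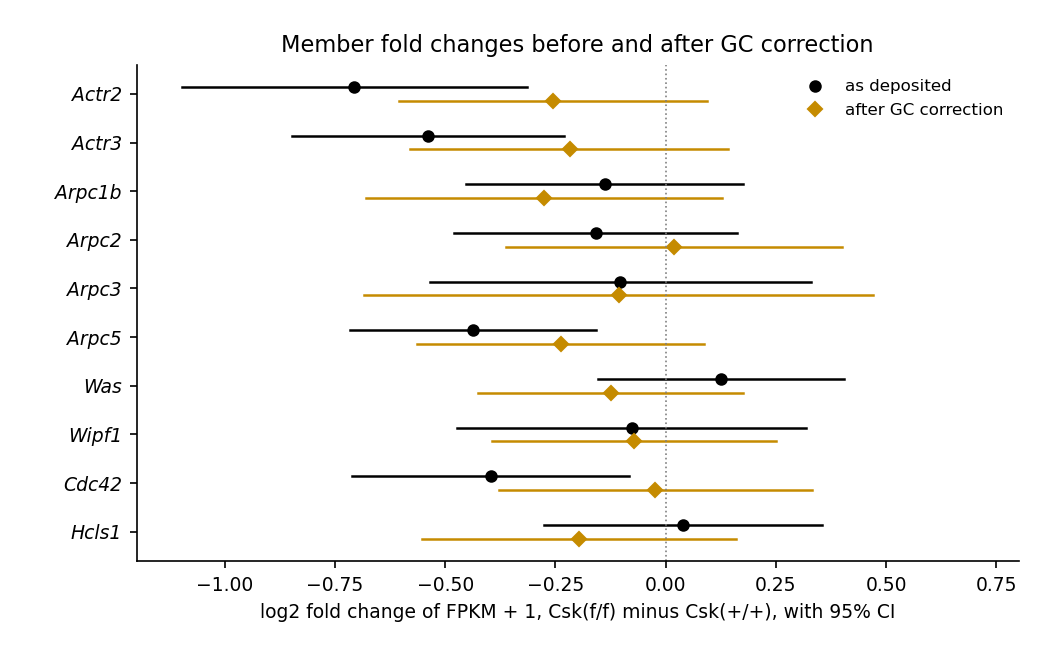
Log2 fold change of FPKM + 1 with its 95% CI for each member, as deposited (black) and after the GC correction (gold). The intervals of Actr2, Actr3, Arpc5 and Cdc42 lie left of 0 as deposited and cross 0 after the correction.

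RNA levels of the members were also compared as shares and ratios within each library. A scale shared by all genes of a library cancels in these, though not in a sum. The 6 member subunits together had 2394, 2177 and 2461 FPKM in control and 1982 and 1902 FPKM in floxed libraries. Their sum leaves out the further subunit genes given below, such as Arpc4 and Arpc5l. It is thus a part of the complex only. Actr3 made up 23.1%, 23.3% and 21.9% of the sum of the 6 in control and 18.9% and 18.8% in floxed libraries. After the GC correction the 2 groups of shares overlapped (21.5 ± 1.33% and 20.6 ± 0.981%, SD, n = 3 and n = 2). Against Arpc2, Actr3 stood at 0.956 ± 0.0179 in control and 0.735 ± 0.0512 in floxed libraries, and at 0.918 ± 0.0254 and 0.779 ± 0.0117 after the correction, without overlap either way. The ratio of Arpc5 to Arpc2, whose transcripts lie within the same bin of GC content, was 0.309 ± 0.00992 and 0.254 ± 0.0169, and 0.307 ± 0.00944 and 0.257 ± 0.0154 after the correction. Actr2 stood at 0.231 ± 0.0282 and 0.157 ± 0.0267 of Arpc2 without overlap, and at 0.215 ± 0.0386 and 0.176 ± 0.00791 with overlap after the correction. The ratio of Hcls1 to Arpc2 turned, from 0.591 ± 0.048 and 0.677 ± 0.0499 to 0.662 ± 0.00875 and 0.570 ± 0.0237. The ratio of Arpc1b to Arpc2 overlapped as deposited (0.843 ± 0.0348 and 0.855 ± 0.0408) and did not after it (0.922 ± 0.0546 and 0.752 ± 0.0598). The ratio of Cdc42 to Was, which did not overlap as deposited, overlapped after the correction (1.98 ± 0.0719 and 2.12 ± 0.104). These shares and ratios were chosen with earlier results known and were not tested. Among single genes, 24.5% of those tested were lower and 20.7% higher without overlap as deposited. No such share is given for ratios or for values after the GC correction, so how common their separation is remains unknown.

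Some positions in the complex can be filled by either of a pair of related subunits. For the p16 position these are ARPC5 and ARPC5L. Arpc5l was the more abundant in all 5 libraries, with 295, 320 and 318 FPKM in control and 317 and 328 FPKM in floxed libraries, and its groups overlapped. Arpc5 made up 37.5%, 33.6% and 35.8% of the FPKM of the pair in control and 29.0% and 27.5% in floxed libraries. The 2 floxed shares were the lowest, and the means differed by -7.40 percentage points. A two-sided exact permutation test gave p = 0.1, the smallest that the 10 splits of 5 libraries allow, and 0.2 adjusted over the 4 shares compared. The transcripts have 46.2% (Arpc5) and 44.5% (Arpc5l) GC and lie in neighbouring bins. The GC correction moved the log2 fold change of Arpc5l from 0.05 to 0.34 and the difference in share to -8.75 points. With any 1 library left out it ranged from -8.41 to -6.48 points.

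At the WD-repeat position, Arpc1b made up 86.5%, 84.8% and 83.5% of the FPKM of Arpc1a and Arpc1b in control and 83.2% and 83.1% in floxed libraries. The difference of -1.81 points was close to the SD of 1.51 within control (exact permutation p = 0.2, adjusted p = 0.267). Was made up 98.2 ± 0.757% of the FPKM of Was and Wasl in control and 99.0 ± 0.216% in floxed libraries (SD, n = 3 and n = 2, exact permutation p = 0.3, adjusted p = 0.3). Wasl, the gene of the ubiquitous N-WASP, had at most 2.39 FPKM. Hcls1 made up 98.8 ± 0.0953% and 99.2 ± 0.202% of the FPKM of Hcls1 and Cttn, the cortactin gene (SD, n = 3 and n = 2, exact permutation p = 0.1, adjusted p = 0.2). The blood cell forms Was and Hcls1 thus held nearly the whole of their pairs in every library.

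**Figure D4:**
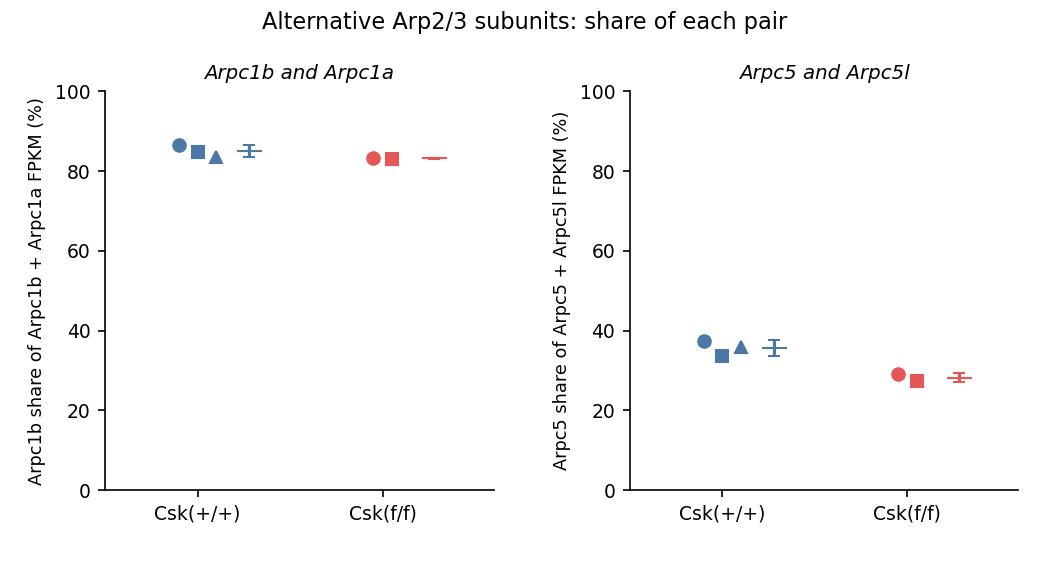
Share of Arpc1b in the FPKM of Arpc1b and Arpc1a (left) and of Arpc5 in that of Arpc5 and Arpc5l (right), in percent, with 1 point per library and the mean ± SD beside the points. The Arpc5 share is 33.6% or more in the 3 Csk(+/+) libraries and 29.0% or less in the 2 Csk(f/f) libraries.

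Of the 4 further Arp2/3 subunit genes, 0 had an unadjusted p under 0.05 as deposited, and 1 (Actr3b, higher) after the GC correction. With that correction 3 of the 4 had positive log2 fold changes, with a median of 0.20. Arpc4, the core partner of Arpc2, had 276 ± 55.2 FPKM (SD, n = 3) in control and 319 ± 8.96 (SD, n = 2) in floxed libraries, and Arpc1a 83.4 ± 11.4 and 86.5 ± 0.0606. Actr3b, a little expressed relative of Actr3, had 4.78 ± 0.196 FPKM in control and 6.50 ± 0.493 in floxed libraries, without overlap. Its log2 fold change was 0.38 (limma adjusted p = 0.261), and 0.42 after the GC correction (limma adjusted p = 0.448). With the 6 members, the subunit genes thus held 3 with a lower value at an unadjusted p under 0.05 as deposited and 7 without one.

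The regions just upstream of the start sites are shown for the 4 lower members and for Was and Hcls1, which were not lower, so that members at both ends of the range of fold changes can be read side by side. They are the 200 bases before the start in RefSeq (build GRCm38.p6), 5′ to 3′ on the strand of the gene, and all 10 members had an entry. Capitals mark matches on either strand to the GC box GGGCGG, the CCAAT box CCAAT, the TATA box TATAAA and CCGGAA, here called ETS core. Only that exact ETS sequence was searched, so GGAA in other contexts, as in the windows of Was and Hcls1, is unmarked. The CArG box, the site of serum response factor at many actin genes, was searched too.

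Actr2, chr11:20112952-20113151, minus strand: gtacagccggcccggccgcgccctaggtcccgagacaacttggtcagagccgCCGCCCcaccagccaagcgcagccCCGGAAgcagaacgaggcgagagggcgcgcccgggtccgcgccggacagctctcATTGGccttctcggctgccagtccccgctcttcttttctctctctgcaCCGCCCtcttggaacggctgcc
Actr3, chr1:125435728-125435927, minus strand: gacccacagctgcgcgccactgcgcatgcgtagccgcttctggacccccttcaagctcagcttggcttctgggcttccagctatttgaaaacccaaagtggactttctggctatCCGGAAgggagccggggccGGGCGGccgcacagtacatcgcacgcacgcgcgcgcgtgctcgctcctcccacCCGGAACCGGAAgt
Arpc5, chr1:152766342-152766541, plus strand: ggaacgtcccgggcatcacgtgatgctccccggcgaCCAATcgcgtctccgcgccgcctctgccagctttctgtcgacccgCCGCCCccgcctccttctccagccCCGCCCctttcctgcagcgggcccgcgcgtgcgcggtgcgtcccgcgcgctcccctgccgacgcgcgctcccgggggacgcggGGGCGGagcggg
Cdc42, chr4:137357760-137357959, minus strand: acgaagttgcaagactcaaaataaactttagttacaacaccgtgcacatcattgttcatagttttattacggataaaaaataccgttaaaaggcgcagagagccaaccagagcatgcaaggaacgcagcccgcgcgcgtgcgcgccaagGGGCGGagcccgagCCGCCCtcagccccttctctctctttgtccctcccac
Was, chrX:8090492-8090691, minus strand: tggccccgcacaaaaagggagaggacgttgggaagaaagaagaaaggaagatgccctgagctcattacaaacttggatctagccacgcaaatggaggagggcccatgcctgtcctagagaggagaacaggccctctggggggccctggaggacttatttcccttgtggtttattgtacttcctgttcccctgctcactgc
Hcls1, chr16:36934783-36934982, plus strand: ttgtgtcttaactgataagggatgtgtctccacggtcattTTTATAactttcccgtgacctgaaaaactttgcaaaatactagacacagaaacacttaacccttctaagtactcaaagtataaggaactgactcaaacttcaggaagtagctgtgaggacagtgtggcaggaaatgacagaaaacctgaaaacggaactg

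Actr2, Actr3, Arpc5 and Cdc42 each held at least 1 GC box in this window, a match found in 31.0% of all 32851 such windows. The ETS core, in 10.7% of all windows, was found once in Actr2 and 3 times in Actr3, where the last pair abut next to the start. The CCAAT box, in 29.3% of all windows, was found in Actr2, in Arpc5 and before the third start of Wipf1. Among the members not shown, Arpc1b held 6 GC boxes, Arpc2 held 2, Wipf1 held 1 before the first of its 3 start sites and Arpc3 held 1 ETS core. Was held none of these matches and Hcls1 held a TATA box match, found in 10.0% of all windows, on the opposite strand and far from the start. The CArG box, in 1.2% of all windows, was in no member's window. GC boxes were thus found in members with larger and with smaller differences between the groups. The window of Was held 3 CpG dinucleotides and that of Hcls1 3, against 15 in Cdc42, 20 in Actr3, 21 in Actr2 and 34 in Arpc5. The other members, which were not among the 4 lower ones, held 16 (Arpc1b), 16 (Arpc3), 29 (Arpc2) and 26 (Wipf1, first start).

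Profiles over the 5 libraries were compared as the root mean square difference of log2 values centred on each gene's mean. Among the 45 pairs of members the closest were Arpc1b with Arpc2 (0.0493), Actr3 with Arpc5 (0.052) and Arpc5 with Cdc42 (0.0561). The farthest were Actr2 with Was (0.461), with Hcls1 (0.431) and with Arpc3 (0.407). Among the other actin genes, those nearest to the members' median profile were Diap2 (0.0528), a formin gene, the GTPase gene Rac1 (0.076) and Lcp1 (0.0858), which encodes the actin bundling protein L-plastin.

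Among 119 other genes of actin control, 104 passed the filter. By limma 0 of the 104 passed over all genes, and at an unadjusted p under 0.05, 15 were lower and 6 higher, close to the 13.6% and 8.07% of all tested genes. Without control replicate 2 these counts were 10 and 15, beside 1139 and 952 of all 10096 genes tested in that fit. Without control replicate 3 they were 22 and 11, beside 2174 and 1350 of all 10147. The median log2 fold change of the 104 actin genes was 0.02, with 49 negative and 55 positive. After the GC correction 8 were lower and 5 higher at that unadjusted p. Of the 104, 61 were then negative, with a median log2 fold change of -0.07. Genes at or near 0 in these cells included the WAVE genes Wasf1 and Wasf3, the WIP relative Wipf3 and the kinase gene Pak1, each below 0.05 FPKM in every library.

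**Figure D5:**
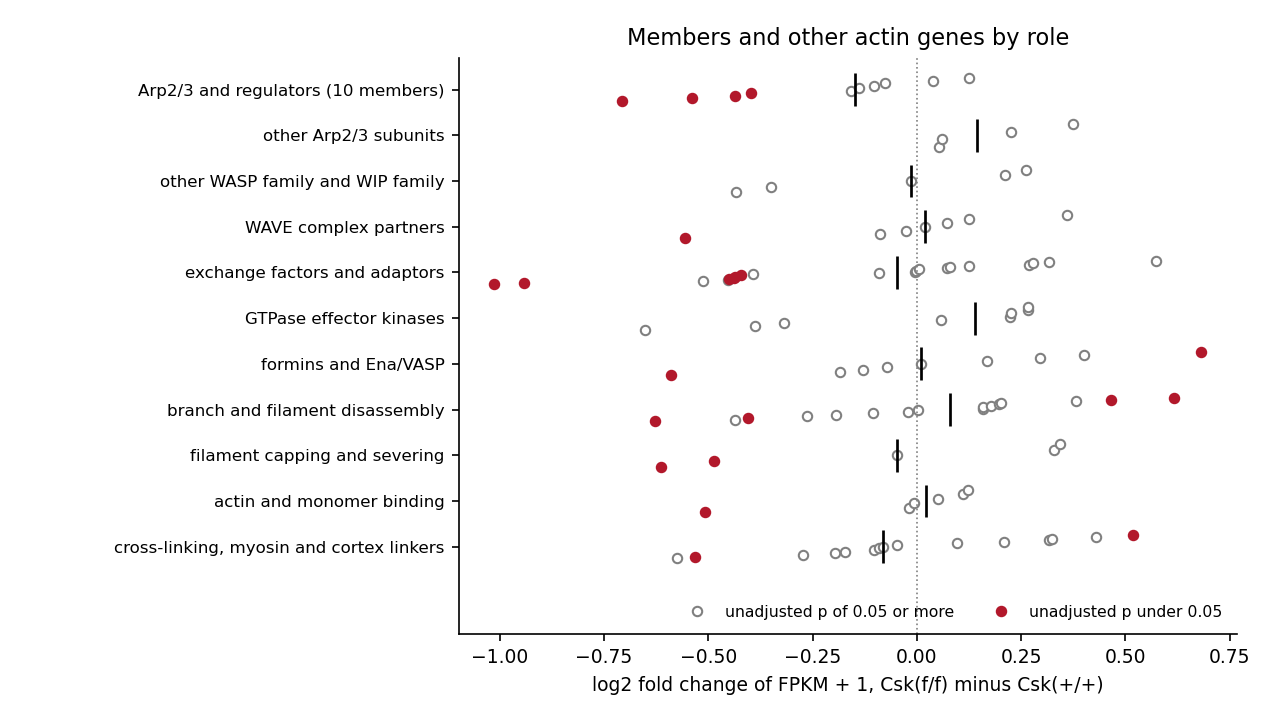
Log2 fold change of the 10 members (top row) and of other actin genes in 10 roles, 1 point per gene, filled where the unadjusted limma p is under 0.05, with a bar at the median of each row. Filled points lie on both sides of 0 outside the top row.

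Adaptors and exchange factors link receptors to GTPases and WASP. Of 20 tested, 6 were lower at an unadjusted p under 0.05, against 13.6% of all tested genes, and 0 passed over all genes. After the GC correction 3 were lower at that p, against 5.07%. The difference between roles was not tested. Nck1, an adaptor that binds WASP and WIP, had 9.95, 10.1 and 9.62 FPKM in control and 4.52 and 4.26 in floxed libraries, a log2 fold change of -1.01 (adjusted p = 0.128) and of -0.53 after the GC correction. Cd2ap, an adaptor for capping protein, had 11.2 ± 1.84 FPKM (SD, n = 3) and 5.42 ± 1.51 (SD, n = 2), and Arhgef6, an exchange factor for Rac and Cdc42, had 31.6 ± 1.47 and 23.0 ± 1.21. Their log2 fold changes were -0.94 and -0.44, and -0.44 and -0.14 after the GC correction. The cortactin gene Cttn had 3.98 ± 0.256 and 2.75 ± 0.997 FPKM, and its log2 fold change went from -0.43 to -0.60 with the GC correction. The adaptor gene Pstpip1, whose product binds WASP, went from -0.45 to -0.75 (limma adjusted p = 0.208 and 0.281). Pstpip1 was chosen after its values were seen.

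Of the WAVE complex, which activates Arp2/3 downstream of Rac, 1 of 7 tested genes was lower at an unadjusted p under 0.05. This was Abi1, with 28.6 ± 2.19 FPKM in control and 19.2 ± 2.87 in floxed libraries. Its log2 fold change of -0.56 became -0.13 after the GC correction. None of the 8 effector kinases had an unadjusted p under 0.05, and Rock2 had 3.67 ± 0.364 and 2.57 ± 0.306 FPKM (log2 fold change -0.39, and 0.03 after the GC correction).

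Genes that take branches and filaments apart were split. Gmfb, whose product removes Arp2/3 branches, had 21.3 ± 1.84 FPKM in control and 13.6 ± 3.91 in floxed libraries (log2 fold change -0.63, and -0.15 after the GC correction). Coro1b, a coronin that acts on branches with cofilin, had 198 ± 22.7 and 273 ± 18.6 (log2 fold change 0.47, and 0.19 after the GC correction), and Coro7, a coronin of the Golgi, 66.4 ± 7.85 and 102 ± 7.65. Coro7 had a log2 fold change of 0.62 (adjusted p = 0.154) and of 0.37 after the GC correction. Among filament cappers, Capza1 had 115 ± 6.64 and 81.9 ± 10.0 FPKM and Capza2 62.4 ± 8.64 and 40.7 ± 9.33, with log2 fold changes of -0.49 and -0.61, and of -0.13 and -0.05 after the GC correction.

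The formin Diap3 had 5.09 ± 0.231 and 3.10 ± 0.998 FPKM, and the formin Inf2 15.1 ± 2.45 and 24.7 ± 4.09, at 42.9% and 60.4% GC. Their log2 fold changes were -0.59 and 0.68, and -0.23 and 0.36 after the GC correction. Tmsb4x, which encodes the monomer binding thymosin beta-4, had 2710, 2551 and 3410 FPKM in control and 2159 and 1886 in floxed libraries (log2 fold change -0.51, adjusted p = 0.23). Tpm4, a tropomyosin gene, had 152 ± 17.6 and 105 ± 2.58 FPKM (log2 fold change -0.53, and -0.32 after the GC correction). These genes were neither all lower nor all higher, and each adjusted p was 0.128 or more.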

How the data were processed

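RNA was extracted with TRIzol and sequenced after NEBNext Ultra library preparation, per the labels' protocols. The authors deposited 1 column per library; TopHat2 2.0.8, Cufflinks 2.1.1 and mm9 are named in the submitters' processing notes. The deposited values were taken as FPKM from these tools, since the header names no unit. The annotation, scaling between libraries and treatment of reads shared by related genes are not given in the sources used here. A line repeating a header was left out.

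The 10242 genes reaching 1 FPKM in 2 or more libraries entered limma 3.58.1 (R 4.3.3) as log2(FPKM + 1) values (trended prior, Benjamini-Hochberg, adjusted p under 0.05). Fold changes, Csk(f/f) minus Csk(+/+), are on that scale and understate those of low genes. Group values are mean ± SD over 3 and 2 libraries. Transcript GC came from the longest GENCODE transcript of GRCm38 (98.8% of tested genes). The correction removed from each library the lowess curve (span 0.3) that GC content traces in its departures from gene means. Depth was estimated from the lowest values of genes with transcripts of at least 1500 nt.

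The fit was tested on simulated data. Members, lists, ratios and tests were chosen with earlier results of these data known. Named were all members, the other subunits and, per role of the actin list, up to 3 genes with an unadjusted p under 0.05 and groups without overlap, or else the smallest p; 3 genes nearest the members' profile were added by distance. Marker lists covered B lineage, germinal centre, light and dark zone, T, macrophage, neutrophil, platelet, erythroid, plasma, dendritic and stromal cells. Of these, the platelet list (at most 2.39 FPKM summed), the dendritic list (17.0 to 22.3 and 18.2 to 24.0 FPKM, mostly Flt3) and the plasma cell list (summing to 93.1 to 102 FPKM and 120 to 130) are not described further. Alternatives were pseudocounts of 0.1 and 5, filters of 0 and 5 FPKM, median-ratio and quantile scaling, library weights, a replicate block, the GC correction and each library left out. A group of the actin list is not reported here.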

Additional observations from a re-analysis of the deposited data

How the results depend on the processing

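The log2 fold changes of Actr2, Actr3, Arpc5 and Arpc1b were negative under all 17 other settings. Not all of these settings could change a sign. The filters left these log2 fold changes as they were. The replicate block gave the same ones as leaving out Csk(+/+) replicate 3. For Arpc1b the confidence interval of the main fit included 0 (-0.452 to 0.175), so its direction was not resolved. Actr2 ranged from -0.84 to -0.57 in log2 without the GC correction. The count of members past the adjusted threshold (0) became 3 with library weights, 1 (Actr2) with the replicate block and 0 to 2 with a library left out. The count lower at an unadjusted p under 0.05 (4) became 0 with the GC correction and 1 with the replicate block and GC correction. With the GC correction it was 1 without Csk(+/+) replicate 3 and 0 without Csk(+/+) replicate 1. It stayed at 4 with a Csk(+/+) library left out and no GC correction. For the other actin genes, the count past the threshold (0) became 6 with library weights, 6 with the replicate block, 2 with block and GC correction, and 0 to 4 with a library left out. Their count lower at an unadjusted p (15) became 8 with the GC correction and 4 with it and without Csk(+/+) replicate 1. With a Csk(+/+) library left out it was 10 to 22. Over all tested genes that count (1394) became 513, 305 and 762 to 2174 in the same settings. The count of other actin genes higher (6) became 12 with library weights, 13 with the block and 0 with the GC correction without Csk(+/+) replicate 1. With a Csk(+/+) library left out it was 3 to 15. Over all tested genes the count higher (827) became 1357, 1446, 282 and 502 to 1350 in the same settings.

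Signs turned for Arpc2 with the GC correction (0.019, and 0.073, 0.074 and 0.003 with it and the block, without Csk(+/+) replicate 3 or 1), Was (-0.13, and -0.063, -0.063 and -0.17) and Hcls1 (-0.20, and -0.14, -0.14 and -0.22, also -0.033 with quantile scaling). Cdc42 turned with the correction and the block (0.067) or without Csk(+/+) replicate 3 (0.070), and Arpc3 with weights (0.014), the block (0.05), and the correction with the block (0.11) or without Csk(+/+) replicate 3 (0.11). With a library left out, Arpc3 ranged from -0.21 to 0.05, Wipf1 from -0.22 to 0.033 (0.004 with the correction, without Csk(+/+) replicate 1) and Hcls1 from -0.074 to 0.15. The difference in the Was share turned to -0.0169 points. The causes were not tested. Over all tested genes, 8 passed, against 671 with library weights, 492 with the block, 411 without Csk(+/+) replicate 3, 162 with block and GC correction, 40 with the GC correction without that library, and 5 without either Csk(f/f) replicate. The median of all tested genes moved by under 0.1 in every setting.

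The replicate numbers were not taken as pairs, since same-numbered libraries deviated with correlations of -0.13 and 0.11 and the labels tie no numbers together. The block leaves Csk(+/+) replicate 3 without a partner. The settings that combine the GC correction with a library left out were chosen after seeing the data. With 5 libraries an exact test of 1 value cannot go below 0.1.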
